A study of Mus musculus with 6 samples.

Results

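The genes described here are 10 markers and brakes of bone morphogenetic protein (BMP) signalling, measured in the superior and inferior parts of the embryonic mouse outflow tract. They are the 4 Id genes (Id1, Id2, Id3 and Id4), 3 Smad genes (Smad6, Smad7 and Smad9) and 3 genes for inhibitors that act at or outside the cell surface (Bambi, Nog and Grem1). Members were all array probe sets whose platform annotation named only 1 of these genes, which gave 15 of 45037 probe sets. The outflow tract is the tube that carries blood out of the embryonic heart and is later divided into aorta and pulmonary trunk. Tissue came from CD1 mice at embryonic day 10.5, with no mutant or treatment named in the labels. Each array, an Affymetrix GeneChip of the Mouse Genome 430 2.0 design, held the RNA of a pool of dissected pieces, and there were 3 superior and 3 inferior pools, numbered 1, 6 and 7 in each region. The sample labels give 6 littermates for a pool and the series text gives 7 dissected pieces. Nothing in the sources used here says whether the pools came from different litters. The p-values of the main fit measure the spread of the region difference across these pools, which may in part be technical.

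BMPs are secreted ligands that bind paired type I and type II receptors, which phosphorylate Smad1, Smad5 and Smad9, and these enter the nucleus with Smad4. The Id genes, Smad6, Smad7 and Bambi are widely used as readouts of this pathway because their transcription is switched on by it. In the outflow tract, BMP ligands from the muscle layer act on the endocardium, the cushions and incoming progenitor and neural crest cells. Id proteins are helix-loop-helix proteins without a DNA-binding region that sequester E proteins, and Smad6 and Smad7 are inhibitory Smads that close a negative feedback loop. Bambi is a receptor-like protein that lacks a kinase, while noggin (Nog) and gremlin 1 (Grem1) bind BMP ligands outside the cell.

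None of the 7 genes bright enough to be tested passed the test for a difference between superior and inferior tissue. Of all 22518 tested probe sets, 0.160% passed. The largest difference among the measurable members was that of Smad7, with a signal in superior tissue 0.79 times that in inferior tissue. Smad6 followed the same direction at 0.89 times. By their brightest probe sets both were lower in each of the 3 pools, as were 17.1% of all tested genes. For Id1, Id2 and Id3 the brightest probe sets had ratios of 0.97, 0.98 and 1.00. Smad9, Nog and Grem1 were at or close to background and were not tested. For Id4, at 0.87 times, and Bambi, at 1.09 times, the brightest probe sets had differences of both signs among the pools.

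Signals are linear MAS5 intensities scaled to a common level on each array, so a signal can be compared between arrays for 1 probe set but not between probe sets. Differences are given as superior minus inferior on the log2(signal + 3.2) scale, which understates differences of dim genes, with the standard error (SE) of a limma fit that compares regions within each pool number. Benjamini-Hochberg adjustment ran over all 22518 tested probe sets, and a call needed an adjusted p below 0.05. In this paired fit 36 probe sets were called, or 0.160% of those tested, against 0 of the 12 tested member probe sets, of which 1 (for Smad7) had an unadjusted p below 0.05. Without the pool number the fit called 0 probe sets (0%), the smallest adjusted p being 0.755, while 792 had an unadjusted p below 0.05. Of the 10 genes, 7 had a brightest probe set above the filter on dim signals, and Smad9, Nog and Grem1 did not. As these are whole pieces of tissue, fewer cells of a type and less RNA per cell cannot be told apart.

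The region difference also depended on signal. The tested genes were split by mean signal into 10 groups of 1119 or 1120 genes, a description chosen after the values were seen. In the brightest group, with mean signals of 846 or more, the median log2 difference was 0.09 and 76.4% of genes were higher in superior tissue. The medians of the other groups lay between -0.05 and 0.01. Id1, Id2, Id3, Smad6 and Bambi belong to the brightest group, and relative to its median Id1 lay lower by 0.14, Id2 by 0.13, Id3 by 0.09 and Smad6 by 0.27, and Bambi higher by 0.03. Smad7 and Id4, in groups with medians near 0, lay lower by 0.32 and 0.20. Cyclic loess, which removes such a trend from each array, gave -0.11 for Id1, -0.11 for Id2, -0.08 for Id3, -0.26 for Smad6, -0.34 for Smad7, -0.20 for Id4 and 0.04 for Bambi, with no call.

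The arrays differed in some technical measures. The superior pool 6 array had hybridisation controls at 1.66 times the level of the median array, against 0.88 to 1.07 for the others. Pool 1 had higher ratios of 3′ to 5′ control probe sets, a measure that increases as RNA is shortened: for Gapdh, 1.30 in superior and 2.21 in inferior tissue, against 0.83 to 0.90 on the other 4 arrays. For actin the pool 1 ratios were 2.23 in superior and 2.26 in inferior tissue. In pools 6 and 7 they were higher in superior tissue, at 1.87 and 1.62 against 1.49 and 1.45.

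Id1 encodes the best known direct BMP target of the family. Its signals were 804, 923 and 983 in superior pools 1, 6 and 7 and 811, 877 and 1130 in the matching inferior pools. The regions overlapped, and superior tissue was the lower one in pools 1 and 7 and the higher one in pool 6. The log2 difference was -0.05 ± 0.09 (SE; adjusted p = 0.889). Its 95% interval of -0.25 to 0.16 corresponds to superior signals between 0.84 and 1.12 times those of inferior tissue. Without the pool number the interval was wider, from 0.76 to 1.23 times. The mean of both regions differed by up to 1.30-fold between pools, with pool 1 lowest and pool 7 highest, which is more than the difference between regions.

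Id2 had 3 probe sets. The brightest gave 1124, 1376 and 1236 in superior pools 1, 6 and 7 and 1286, 1194 and 1339 in inferior pools. Only pool 6 had the higher value in superior tissue, and the regions overlapped. The log2 difference was -0.04 ± 0.10 (adjusted p = 0.933; 95% interval -0.27 to 0.20). The next brightest probe set gave 0.08 ± 0.09, with the opposite sign. The dimmest, with signals from 26.9 to 68.1, was lower in superior tissue in each pool (log2 -0.26 ± 0.14, adjusted p = 0.529), and its pool means spanned 1.98-fold, so pools differed more than regions. Of all tested probe sets, 19.0% were lower in superior tissue in all 3 pools and 15.0% were higher in all 3.

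Id3 had signals of 1354, 1594 and 1246 in superior pools 1, 6 and 7 and 1468, 1400 and 1293 in inferior pools. As for the brightest Id2 probe set, superior tissue was the higher one in pool 6 and the lower one in pools 1 and 7. The log2 difference was 0.01 ± 0.09 (adjusted p = 0.990), and the 95% interval allowed superior signals between 0.87 and 1.16 times those of inferior tissue. Among all 11195 tested genes, 97.0% had a larger difference in size than Id3.

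Id4 also had 3 probe sets. The brightest had signals of 285, 206 and 311 in superior pools 1, 6 and 7 and 330, 291 and 293 in inferior pools. Superior tissue was lower in pools 1 and 6 and higher in pool 7, with the superior pool 6 value the lowest of all. The log2 difference was -0.21 ± 0.12 (adjusted p = 0.571; 95% interval -0.48 to 0.07). Without pool 6, whose superior array stands apart in its controls, it was -0.06, and without pool 7 it was -0.35. The next brightest probe set was lower in superior tissue in all 3 pools, with log2 differences of -0.05, -0.36 and -0.04 in pools 1, 6 and 7 (mean -0.15 ± 0.11, adjusted p = 0.659). The dimmest gave -0.09 ± 0.14, lower in pools 1 and 6.

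**Figure D1:**
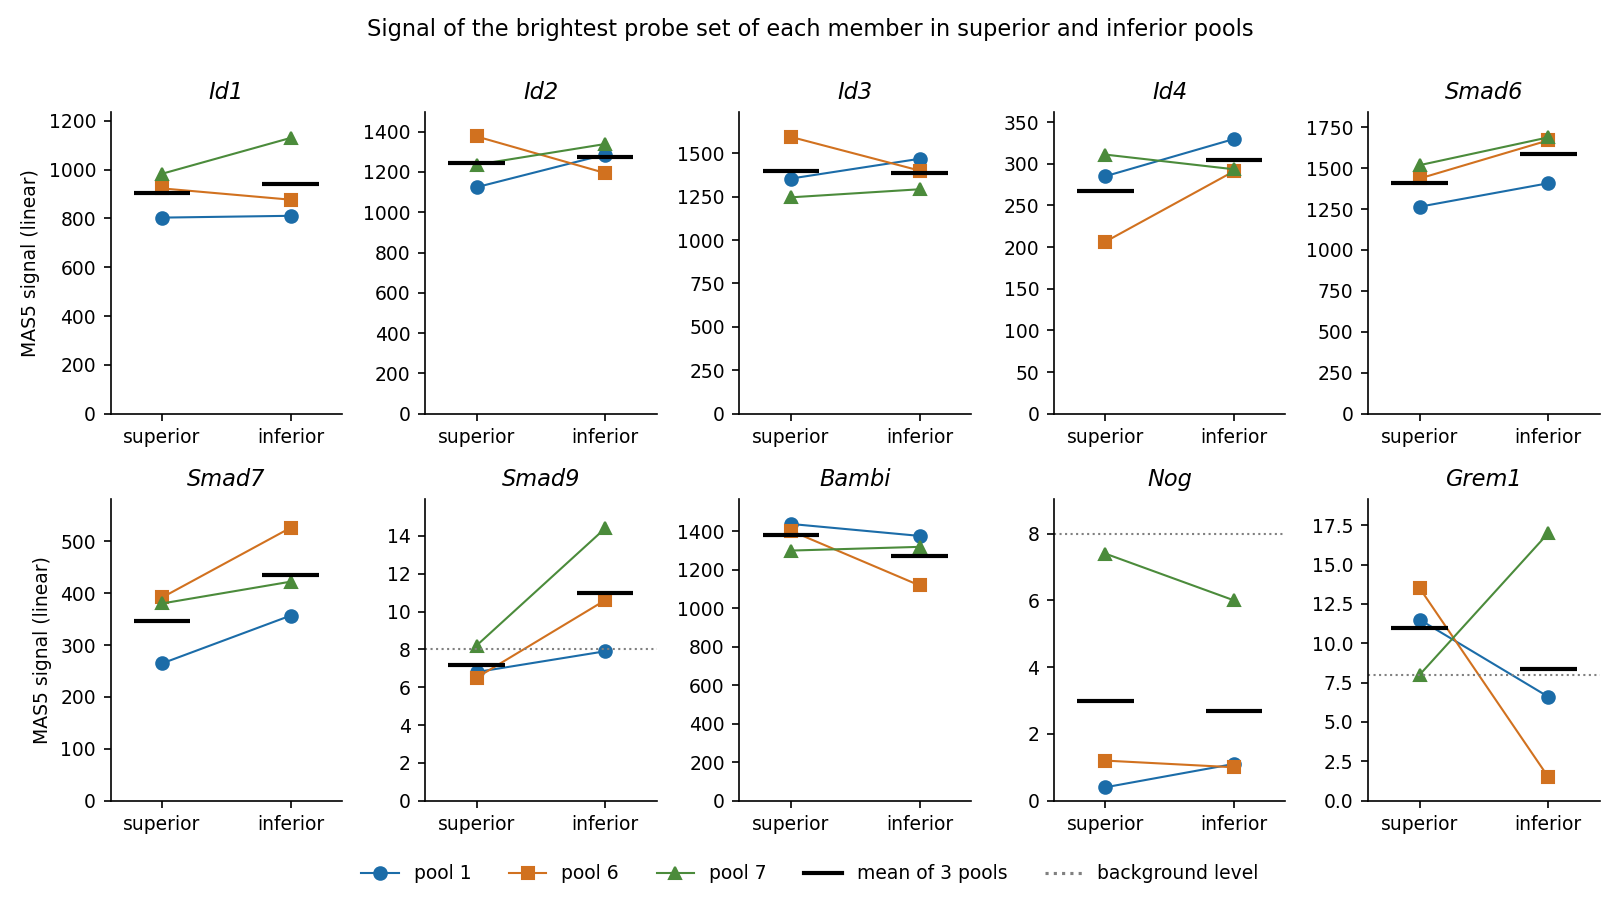
Linear MAS5 signal (y axis, from 0) of the brightest probe set of each of the 10 genes in superior and inferior tissue, with a line joining the regions of each pool and a black bar for the mean of 3 pools. Lines for Smad6 and Smad7 slope the same way in every pool, those of Id1, Id2, Id3, Id4 and Bambi slope both ways, and Smad9, Nog and Grem1 lie near the dotted background level of 8.0.

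The profiles of the Id genes over the 6 arrays were compared by the root mean square distance of their log2 values, each centred on its own mean. Id2 and Id3 were 0.12 apart, Id1 and Id2 were 0.14 apart and Id1 and Id3 were 0.25 apart. Such distances were not limited to pairs of Id genes, as Id1 and Smad6 were 0.12 apart, and Id2 was 0.14 from both Smad6 and Bambi. Id4 was 0.28, 0.27 and 0.30 from Id1, Id2 and Id3. Over the tested genes, the median distance from Id2 was 0.22 and that from Id1 was 0.26. The 3 genes nearest to Id1 were Disp1 (0.02), Aph1a (0.03) and Map2k2 (0.04). Those nearest to Id2 were Bag1, Blzf1 and Zdhhc21, each at 0.03, and those nearest to Id3 were Ppp3ca (0.03), Gorasp1 and Septin2 (both 0.04). No other member was among these nearest genes. With 6 arrays and many genes, close profiles are found for most shapes. The standard deviation of the profile was 0.11 for Id2, 0.13 for Id3, 0.19 for Id1 and 0.23 for Id4, against a median of 0.20 over the tested genes.

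Smad6 encodes an inhibitory Smad that acts mainly on BMP receptors. Its signals were 1264, 1436 and 1518 in superior pools 1, 6 and 7 and 1407, 1669 and 1688 in inferior pools. Superior tissue was the lower one within each pool, although the regions overlapped across pools because pool 1 was low in both. The pool differences were alike, at -0.16, -0.22 and -0.15 on the log2 scale. Their mean was -0.17 ± 0.08 (SE; adjusted p = 0.485), with a 95% interval from 0.78 to 1.01 times the inferior signal. Without pool 1 it was -0.18. Of all tested genes, 30.6% had a larger difference in size.

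Smad7 encodes the inhibitory Smad that acts on both BMP and TGF-beta receptors. Its brighter probe set had signals of 265, 392 and 380 in superior pools 1, 6 and 7 and 357, 527 and 423 in inferior pools. Each superior value was below its inferior partner, and the regions overlapped across pools. The pool differences were -0.43, -0.42 and -0.15, with a mean of -0.33 ± 0.10 and a 95% interval of -0.56 to -0.11. That interval excludes 0 and the unadjusted p was 0.00841, and 11.0% of all tested probe sets had an unadjusted p below 0.05. The adjusted p was 0.331, and without the pool number the interval included 0 (-0.79 to 0.13, adjusted p = 1). Without pool 1 the difference was -0.29, without pool 6 -0.29 and without pool 7 -0.43.

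The dimmer Smad7 probe set did not follow the brighter one. Its type, marked by an x in its name, can share probes with other transcripts. It had signals of 53.9, 74.4 and 26.3 in superior pools 1, 6 and 7 and 69.0, 52.6 and 73.2 in inferior pools. Superior tissue was higher in pool 6 and lower in pools 1 and 7. Its log2 difference of -0.41 ± 0.31 had an interval from -1.16 to 0.33 (adjusted p = 0.677).

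Smad9 encodes a BMP-activated Smad that is itself a BMP target gene. Its probe set had signals of 6.8, 6.5 and 8.2 in superior pools 1, 6 and 7 and 7.9, 10.6 and 14.4 in inferior pools. Only 3 of the 6 values exceeded the background level of 8.0, the highest signal of 27 Bacillus control probe sets. All 3 superior values were below their partners, but these signals are too close to background for a fold to be read, and the gene was outside the main test.

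**Figure D2:**
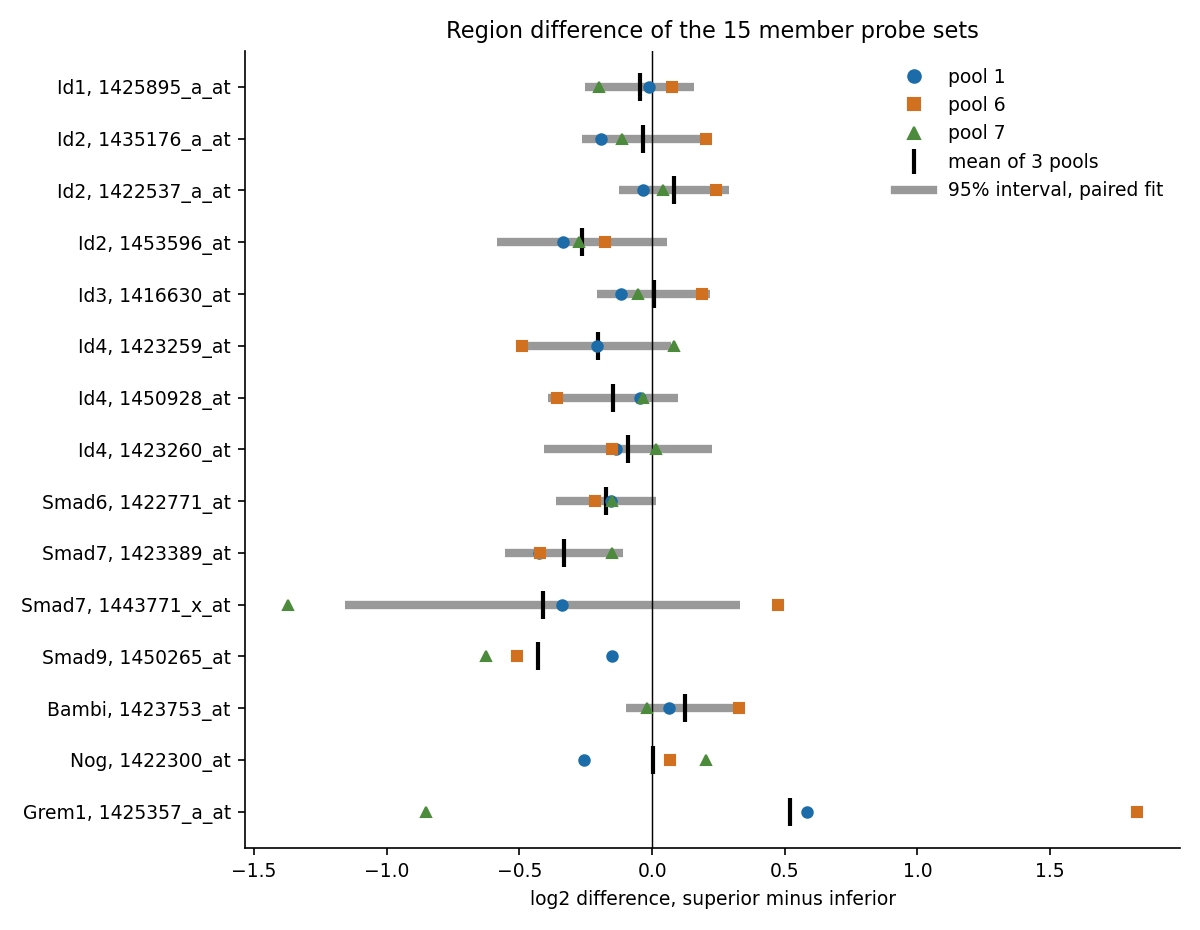
Log2 difference (x axis, superior minus inferior) of the 15 member probe sets, with a symbol for each pool, a black mark for the mean of 3 pools and a grey bar for the 95% interval of the paired fit where a probe set was tested. Of the tested probe sets, the brighter Smad7 one alone has an interval (-0.56 to -0.11) that does not cross 0, and its adjusted p was 0.331.

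Bambi had signals of 1439, 1403 and 1300 in superior pools 1, 6 and 7 and 1377, 1119 and 1320 in inferior pools. Superior tissue was higher in pools 1 and 6 and lower in pool 7, and most of the mean came from pool 6, where the inferior value was the lowest. The log2 difference was 0.12 ± 0.10 (adjusted p = 0.681; 95% interval -0.10 to 0.34). Without pool 6 it was 0.02.

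Nog was not above background on any array. Its signals were 0.4, 1.2 and 7.4 in superior pools 1, 6 and 7 and 1.1, 1.0 and 6.0 in inferior pools, so pool 7 had the highest value in both regions, and no fold is given. Grem1 had signals of 11.5, 13.5 and 8.0 in superior pools and 6.6, 1.5 and 17.0 in inferior pools. It exceeded the background level of 8.0 on 3 of 6 arrays, and the direction in pool 7 was opposite to that in pools 1 and 6.

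Over the 7 tested members the median log2 difference was -0.05, with 5 lower and 2 higher in superior tissue. These counts depended on the pools and the scaling, with 3 lower and 4 higher without pool 7 (median 0.01) and 6 lower and 1 higher under cyclic loess (median -0.11). Over all 11195 tested genes the median was 0.00, with 50.8% lower. The members' range, from -0.33 for Smad7 to 0.12 for Bambi, compares with an interquartile range of -0.11 to 0.11 for all tested genes. Smad7, Id4 and Smad6 lay below that range and Bambi lay just above it, and 8.5% of genes had a larger difference in size than Smad7. The superior values of no member lay all above or all below the inferior ones, a pattern seen in 9.21% of all tested probe sets.

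**Figure D3:**
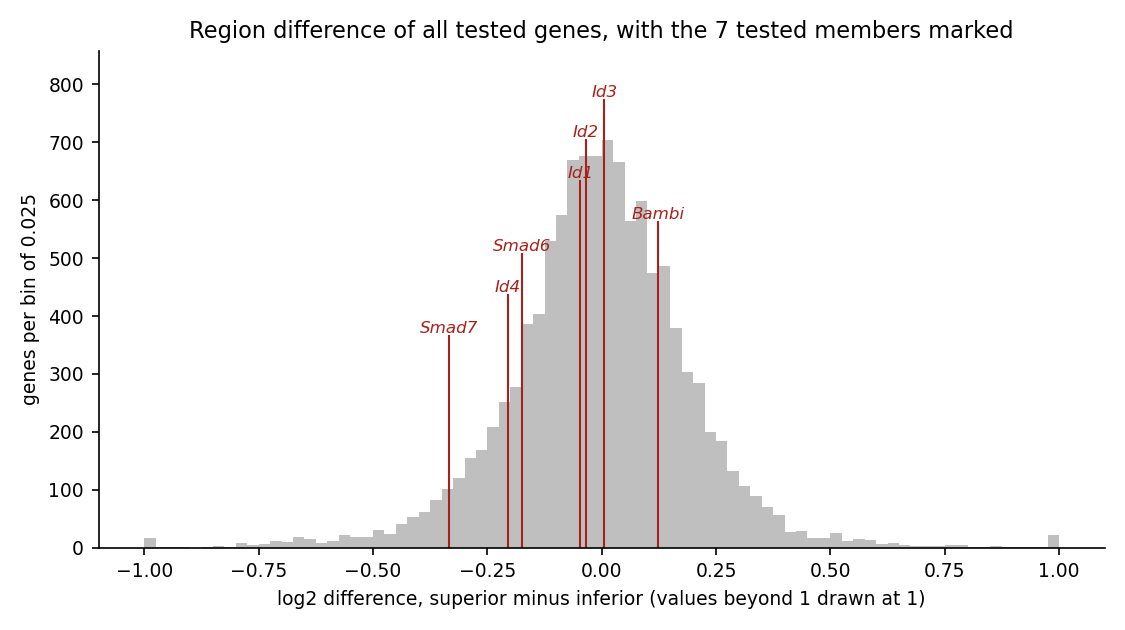
Histogram of the log2 difference (x axis, superior minus inferior; y axis, genes per bin) of the 11195 tested genes, each by its brightest tested probe set, with the 7 tested members as red lines. Id1, Id2 and Id3 lie at the centre, Smad6, Id4 and Smad7 on the lower side down to -0.33, and Bambi at 0.12.

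Upstream sequence is shown for the tested members whose entry in the RefSeq table (assembly GRCm38.p6) was used. Genes with a difference near 0 (Id2, Id3) and genes with a larger one (Id4, Smad6) can then be set beside each other. The search of member windows left out 1 chromosome, and 6 of the 10 members had an entry outside it. Id1, Smad7, Bambi and Nog have no window here, so Smad7, the tested member with the largest difference, is not shown. A missing window can come from leaving out that chromosome as well as from a missing entry. The 250 bases before the listed start were searched for GGCGCC, the core of BMP response elements bound by Smad1 and Smad5 and the same on both strands, and for GTCT on either strand (AGAC on the gene's strand), the motif bound by Smad4. The motifs do not overlap each other in these windows. Capitals mark the matches, and each sequence runs 5′ to 3′ on the gene's strand.
Id2 (chr12:25096093-25096342, minus strand): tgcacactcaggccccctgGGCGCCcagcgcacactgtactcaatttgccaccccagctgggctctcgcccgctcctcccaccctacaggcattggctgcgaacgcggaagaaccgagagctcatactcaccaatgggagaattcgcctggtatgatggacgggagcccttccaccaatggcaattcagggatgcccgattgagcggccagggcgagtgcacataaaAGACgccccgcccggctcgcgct
Id3 (chr4:136143572-136143821, plus strand): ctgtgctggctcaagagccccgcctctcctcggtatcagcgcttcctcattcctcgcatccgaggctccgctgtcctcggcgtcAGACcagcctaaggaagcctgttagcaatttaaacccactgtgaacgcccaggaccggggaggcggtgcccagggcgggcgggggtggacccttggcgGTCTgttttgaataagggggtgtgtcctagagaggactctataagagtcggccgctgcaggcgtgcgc
Id4 (chr13:48260866-48261115, plus strand): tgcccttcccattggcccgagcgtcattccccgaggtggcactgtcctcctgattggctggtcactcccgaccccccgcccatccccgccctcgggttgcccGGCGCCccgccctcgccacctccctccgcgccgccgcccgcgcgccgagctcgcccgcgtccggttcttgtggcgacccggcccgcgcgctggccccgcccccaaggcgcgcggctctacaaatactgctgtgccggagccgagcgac
Smad6 (chr9:64022060-64022309, minus strand): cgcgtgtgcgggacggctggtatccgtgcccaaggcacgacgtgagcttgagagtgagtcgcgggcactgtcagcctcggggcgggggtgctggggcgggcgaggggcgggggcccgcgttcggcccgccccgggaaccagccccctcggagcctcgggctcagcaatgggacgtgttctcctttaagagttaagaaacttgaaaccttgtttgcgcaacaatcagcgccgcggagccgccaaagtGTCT
These windows lie outside the gene models except the last 26 bases of the Smad6 window, where another listed transcript has already begun. Id2 held GGCGCC at -231 and AGAC at -23 from the start, Id4 held GGCGCC at -148, Id3 held the GTCT motif at -166 and -68, and Smad6 held it at -4. GGCGCC was present in 9.7% of all 32536 windows of this length and GTCT in 82.9%. Each of these pairs of genes included 1 window with GGCGCC and 1 without. A match is a description of letters and not a binding site, and elements further from the start were not searched.

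Other genes of the pathway were taken from lists chosen with earlier results of these data known. Of 52 genes, 49 were represented by a probe set naming no other gene, and 42 passed the filter. None was called in the paired or unpaired fit, 32 being lower and 10 higher in superior tissue (median log2 difference -0.07), and the smallest adjusted p was 0.106. Over all tested genes 50.8% were lower in superior tissue, a share that varied with signal.

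Among the ligands, 4 of 5 tested genes were lower in superior tissue, with a median of -0.24. Bmp6 had signals of 106, 70.0 and 94.1 in superior pools 1, 6 and 7 and 171, 105 and 150 in inferior pools, each superior value below its partner (log2 -0.63 ± 0.11, adjusted p = 0.106). Bmp5 was the exception, with 147, 82.3 and 184 against 69.4, 67.6 and 87.1, higher in each pool (0.79 ± 0.17, adjusted p = 0.170). Bmp2 gave -0.36 ± 0.13 (adjusted p = 0.415), with pool 7 near 0 at 0.03. Bmp4 gave -0.24 and Bmp7 gave -0.16, which is smaller in size than the Id4 difference. The ligand differences ran in both directions, and none passed the test.

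Receptors and co-receptors were evenly split, with 4 of 8 tested genes lower and a median of -0.01. Their 3 smallest p belonged to the activin type II receptor gene Acvr2b (-0.17 ± 0.12, adjusted p = 0.636), the type I receptor gene Acvr1 (-0.13 ± 0.09) and the endothelial co-receptor gene Eng (0.14 ± 0.15). The signalling Smads that carry the signal to the nucleus were close to equal: Smad5 gave -0.11 ± 0.09, Smad4 -0.09 ± 0.09 and Smad1 -0.07 ± 0.11, the smallest adjusted p being 0.688.

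Among other antagonists and modulators, 10 of 12 tested genes were lower in superior tissue, with a median of -0.09. Tob1, a protein that restrains Smad activity, had signals of 251, 278 and 231 in superior pools 1, 6 and 7 and 389, 301 and 311 in inferior pools. Its superior values all lay below its inferior ones, and the log2 difference was -0.39 ± 0.12 (adjusted p = 0.335). The secreted antagonist gene Dand5 was dim, at 12.9 ± 2.85 (SD, n = 3) in superior and 19.2 ± 1.28 in inferior pools, and its regions did not overlap either (-0.49 ± 0.21, adjusted p = 0.443). Regions did not overlap for 9.21% of all tested probe sets. Follistatin (Fst), which binds activins and some BMPs, gave -0.42 ± 0.19 (adjusted p = 0.464), with pool means that spanned 3.05-fold.

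Of 11 other response genes tested, 9 were lower, with a median of -0.05. The T-box repressor gene Tbx3 had signals of 24.3, 35.3 and 49.7 in superior pools 1, 6 and 7 and 41.1, 49.5 and 82.1 in inferior pools, lower in each pool (-0.61 ± 0.15, adjusted p = 0.243). Its relative Tbx2 gave -0.35 ± 0.13 (adjusted p = 0.401), and the cardiac homeobox gene Nkx2-5 gave -0.31 ± 0.09 (adjusted p = 0.313). The E protein genes, whose products the Id proteins bind, were near 0: Tcf12 gave -0.09 ± 0.09, Tcf3 -0.07 ± 0.10 and Tcf4 0.04 ± 0.10. Tcf3 differed 2.14-fold between pool means, with pool 1 lowest, which is the pool with the higher 3′ to 5′ ratios. Pool 1 was also lowest for Id1, Id2, Smad6 and Smad7, whereas Id3 was lowest in pool 7, Id4 and Bambi were lowest in pool 6, and Bambi was highest in pool 1. A part of RNA quality in these pool differences was not tested.

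**Figure D4:**
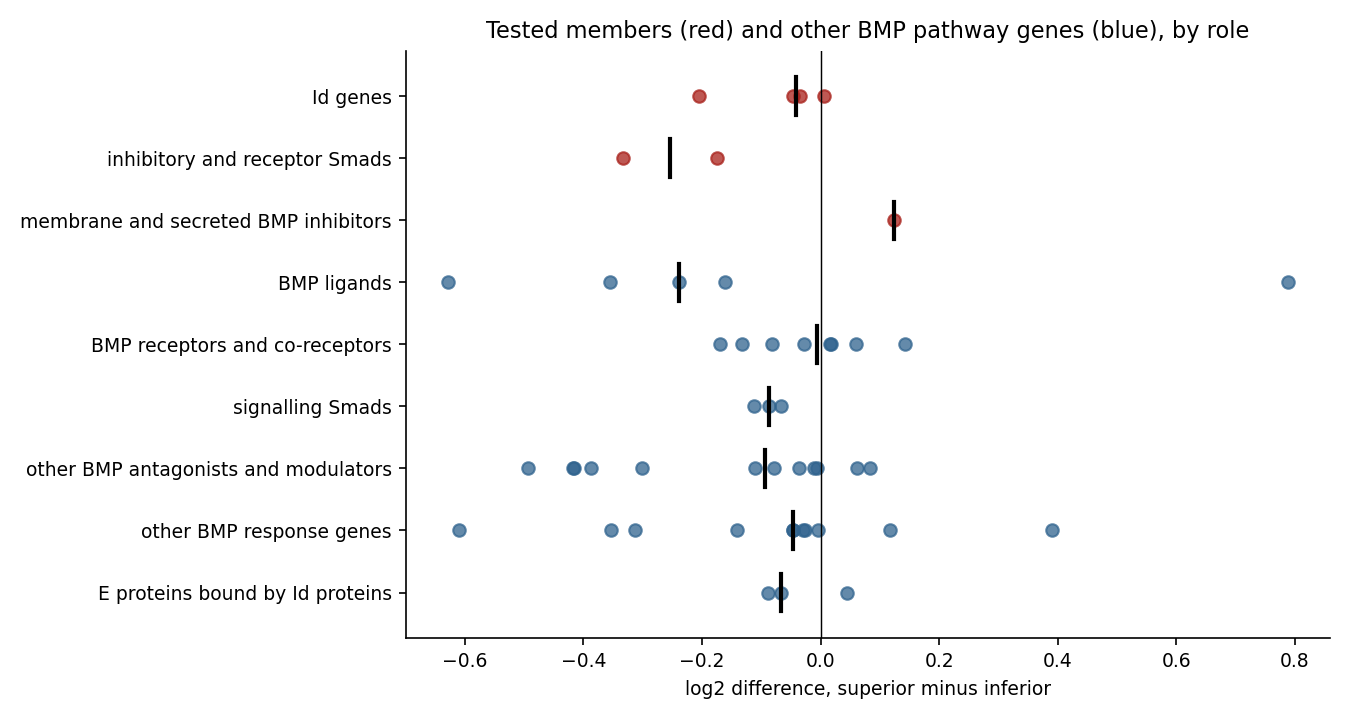
Log2 difference (x axis, superior minus inferior) of the tested members in red and of the other tested pathway genes in blue, in rows by role, each dot a gene and each black bar the median of its row. Ligands spread from -0.63 (Bmp6) to 0.79 (Bmp5), while the Id genes lie between -0.21 and 0.01.

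Markers of cell types were read beside these results, since regions can differ in their mix of cells. All 11 cardiac muscle markers and all 8 tested epicardial markers were higher in superior tissue by mean difference, with medians of 0.24 and 1.07, and 4 epicardial genes were called. Other genes of high signal had differences of similar size, as the 200 brightest tested genes, which include 7 of these 11 markers, had a median of 0.20, an interquartile range of 0.15 to 0.25, and 97.5% were higher in superior tissue. The atrial peptide gene Nppa (2.24) and the myosin light chain gene Myl2 (0.48) lay furthest above that range. Nppa is far dimmer than those 200 genes, with a mean signal of 94.1. Its own group by signal had a median of -0.01 and an interquartile range of -0.13 to 0.09. The summed signal of 9 epicardial markers ranged from 1125 to 1931 in superior and from 699 to 953 in inferior pools, Msln being the marker below background on every array. Such sums weigh each marker by the brightness of its probe set and do not measure the amount of a cell type. Neural crest markers were lower in 6 of 7 tested cases (median -0.21), with sums of 1073 to 1197 and 1262 to 1459 and with Foxd3 and Tfap2b below background on every array. Sox10 (0.31, adjusted p = 0.626 in the paired fit) was the exception. It was dim, with signals of 12.1 to 21.8, and its pool 6 values were nearly equal, at 19.7 in superior and 19.6 in inferior tissue. Most of these sums came from Ets1 (means of 507 in superior and 588 in inferior pools) and Crabp1 (509 and 546). Crabp1 was higher in superior tissue in pools 6 and 7. Cushion mesenchyme was lower in 6 of 8 (median -0.22), with overlapping sums of 6855 to 10135 and 6801 to 9403. Postn and Vcan, the only markers of that list that were higher, made up 67.5% to 76.1% of these sums, and the other 6 summed to 1895 to 2424 in superior and 2213 to 2719 in inferior pools. Endothelial and endocardial markers had a median of 0.03 (sums of 1791 to 2385 and 1784 to 2159), and second heart field markers one of -0.31 over 5 genes (1250 to 1700 and 1399 to 2089). Markers of pharyngeal epithelium had a median of 0.03 over 4 tested genes, with sums of 1147 to 1341 and 946 to 1427. Most of these sums came from Krt8 (means of 641 in superior and 633 in inferior pools) and Krt18 (521 and 439). Foxa2, Sox2 and Shh exceeded background on 1, 4 and 3 of 6 arrays, and Pax9 was below it on every array. Markers of red blood cells had a median of 0.22, with sums of 13797 to 22490 and 12420 to 15557. The probe set naming Hba-a1 alone was below background. The part of these cell types in the Smad6 and Smad7 values was not tested.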

How the data were processed

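Per the labels, RNA of 6 pools, 3 superior and 3 inferior, was labelled with biotin and hybridised to arrays. The authors deposited linear intensity values, summarised per probe set by MAS5 according to the submitters' processing notes, with no version named. Every array had a 2% trimmed mean of 100. No depth applies to arrays, and their number limits the precision.

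Of 45101 probe sets, 64 controls were left out, and 34945 of the others named 1 gene in the platform annotation. All 10 member symbols matched the RefSeq gene table by gene ID. The offset of 3.2 is the 25th percentile of signals, and tests covered probe sets with a mean log2 value above the median (a signal of about 15.1). The regions were fitted with limma 3.58.1 in R 4.3.3 (eBayes with trend and robust variance), with the pool number as a block because the comparison was set as paired by pool number. This fit has 2 residual degrees of freedom, so its errors rest on variance shared across probe sets. The deviations of same-numbered arrays from their region means correlated at 0.79, 0.43 and 0.51, each above the limit of 0.1, and at -0.54 to 0.20 for unlike numbers. Deviations from a mean of 3 arrays sum to 0, which ties the values for unlike numbers to the others. Pools 6 and 7 set against each other (0.20 and 0.18) also exceeded the limit, so this check does not establish the pairing. The fit was tested on simulated data.

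The text names all 10 members, the 3 genes of smallest paired p in each pathway list and the 3 nearest profiles of Id1, Id2 and Id3. Members and lists were chosen with earlier results of these data known. An exact permutation test of 3 pools against 3 cannot give p below 0.1 and was not used. Alternatives changed the block, offset, filter, scaling, variance model, probe set rule and pools.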

Additional observations from a re-analysis of the deposited data

How the results depend on the processing

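No tested member was called under any of the 13 alternatives, the smallest adjusted p being 0.190 (Smad7 without pool 7). Differences of Smad6 (-0.26 to -0.14), Smad7 (-0.43 to -0.29), Id4 (-0.35 to -0.06) and Bambi (0.02 to 0.20) kept their direction under all of them. Changes of block, filter and variance model cannot alter a difference, only its error and adjusted p, so they do not test its direction. The signs of the Id genes nearest to 0 did not hold. Id1 ranged from -0.11 to 0.03 when each pool was left out. Id2 was 0.004 under 75th percentile scaling and ranged from -0.154 to 0.045 with a pool left out. Id3 was -0.068 under quantile normalization and -0.077 under cyclic loess, and ranged from -0.084 to 0.067 with a pool left out. The median member difference ranged from -0.11 under cyclic loess (1 member higher, 6 lower) to 0.01 without pool 7 (4 higher, 3 lower). The cause was not tested.

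The count of called probe sets, 36 in the paired fit, was 0 with no replicate block, 22 with an offset of 1, 1 without the filter, 2 in the top 25% by signal, 0 without the trend and robust variance and 17 by gene means. It ranged from 9 (without pool 1) to 231 (without pool 6). Scaling altered the median of all genes by at most 0.04. With 3 pools a region, the differences of Smad6 and Smad7 are not resolved after adjustment. Some larger ones were not called in the paired fit either, such as Bmp6 (log2 -0.63, adjusted p = 0.106) and Nppa (2.24, adjusted p = 0.0622), while 4 epicardial genes were called. Signals near 8.0 (Smad9, Nog, Grem1) are limited by background.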
